A study of Bos taurus with 36 samples.

Results

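The liver samples compared here were taken 12 h and 6 h after the udder was infused with bacterial lipopolysaccharide (LPS), the endotoxin of the E. coli outer membrane. They are read against samples taken at -22 h, before the infusion, from the same animals and, in the model fit, also from 4 further cows. The 12 h and 6 h samples make up 8 of the 36 arrays of a time course in Holstein-Friesian dairy cows, 4 at each hour. Each 12 h array has a 6 h array of the same cow, matched through the animal number in the labels. Cows 1, 3, 7 and 8 were biopsied once at -22 h and then 3 h, 6 h, 9 h, 12 h and 48 h after the infusion, and cows 2, 4, 5 and 6 at -22 h, 9 h and 48 h only. All cows were healthy before the infusion and in the first lactation, every array hybridised total RNA of 1 biopsy of 1 cow to the Affymetrix bovine genome array, and no saline-infused animal is among the arrays, so each comparison is of hours within treated cows. Values are log2 intensities, on which a difference of 1 is a 2-fold change, and per-cow values are given in the order cows 1, 3, 7 and 8. A probe set was called where its adjusted p-value was below 0.05 in a linear model of hour and cow fitted with limma to all 24128 probe sets and all 36 arrays. By this rule 464 probe sets were called lower than at -22 h at 6 h and higher than at -22 h at 12 h (the low-high set), and 169 were called higher at 6 h and lower at 12 h (the high-low set), out of 24128. Read through the brightest probe set of each gene, these were 305 (3.33%) and 46 (0.502%) of 9155 genes. Each array correlated with the others of its hour at a mean r of 0.983 to 0.992 across probe sets, and at 48 h the array of cow 2 was the lowest (0.983, against 0.988 to 0.991 in the other cows).

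LPS taken up in the udder provokes the release of cytokines that reach the liver, and the liver answers with the acute phase response, in which its output turns towards plasma defence proteins and away from many metabolic tasks. The first hours of such a response are carried by genes that need no new protein to be switched on, among them immediate early transcription factors, chemokines and the inhibitors that later damp the signal. Synthesis of ribosomes, secretory machinery and proteasomes follows, while detoxifying, bile acid and fatty acid enzymes are commonly repressed. The comparison of 12 h with 6 h asks which genes turned round between an early and a later stage of this sequence.

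Between 6 h and 12 h the liver transcriptome shifted in both directions. Of 24128 probe sets, 4638 (19.2%) were higher at 12 h than at 6 h and 3806 (15.8%) were lower, and 7880 of these 8444 had the same sign in all 4 cows. At gene level 2566 of 9155 genes (28%) were higher and 1605 (17.5%) lower. The differences reached 2-fold for 1818 probe sets that were higher and 1926 that were lower, and 8-fold for 63 and 136. Most of the change was not a crossing of the -22 h level. At 12 h 22.6% of probe sets were higher and 19.2% lower than at -22 h (41.8% in all), and at 6 h 20.1% were higher and 22.7% lower (42.8% in all). Of the probe sets that were lower than at -22 h at 6 h, 1400 were no longer called at 12 h and 3603 were still lower, with 464 crossing to the other side. Of those higher at 6 h, 1628 were no longer called at 12 h, 3063 were still higher and 169 had crossed. Another 1931 probe sets were first called higher at 12 h, and 855 first called lower. The size of the shift differed among the cows, with a median absolute difference over the called probe sets of 0.97, 1.00, 0.77 and 0.95 in cows 1, 3, 7 and 8, lowest in cow 7.

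**Figure D1:**
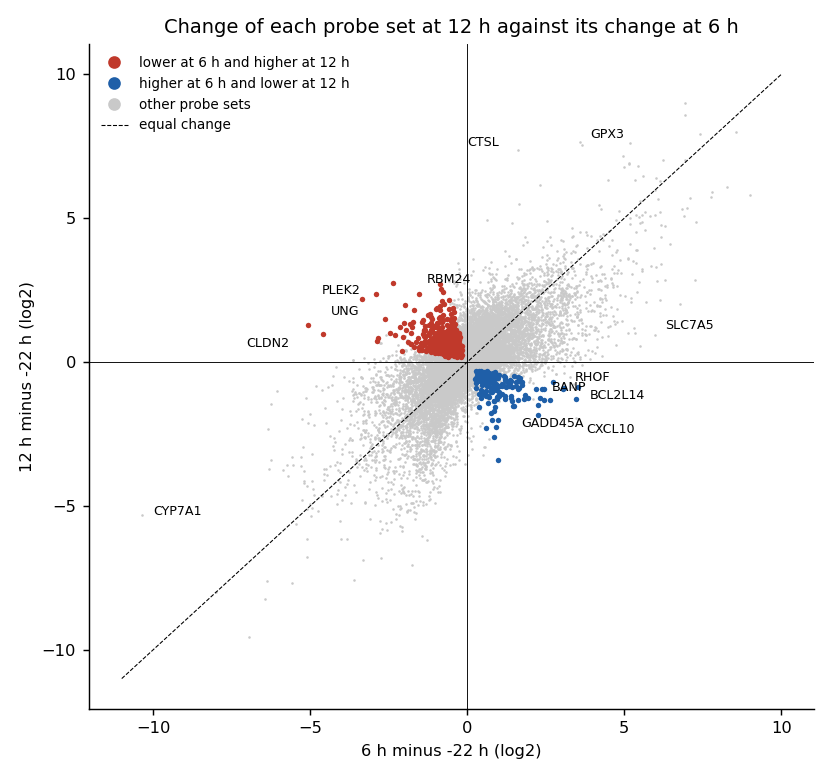
Each point is 1 of 24128 probe sets, with its change from -22 h at 12 h on the vertical axis and at 6 h on the horizontal axis (log2). The 464 red probe sets lie left of and above the zero lines, the 169 blue ones right of and below them, and named genes off these sets (CTSL, GPX3, CYP7A1, SLC7A5, CXCL10) moved far between the hours without being called on opposite sides.

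The largest rise was that of CLDN2, claudin 2, which forms cation-selective pores in tight junctions. Its log2 values were 9.73, 9.44, 8.57 and 8.78 at 12 h, against 3.34, 2.68, 2.83 and 2.24 at 6 h and a mean of 7.67 at -22 h. No 12 h value came near a 6 h value, and the difference was 6.36 ± 0.39 (SE, n = 4 cows; adjusted p = 8.6e-12). The 6 h values were dim, so the size of the difference is uncertain, and a second CLDN2 probe set differed by 5.24. CTSL, the lysosomal protease cathepsin L, had 9.64, 8.31, 12.05 and 10.91 at 12 h, against 4.77, 3.23, 6.44 and 3.36 at 6 h. At 6 h every cow was above the -22 h mean of 3.06, but cows 3 and 8 only slightly, and all 6 h values except that of cow 7 were dim. The difference between 12 h and 6 h was 5.78 ± 0.57 (adjusted p = 1.3e-08). CYP7A1, the rate-limiting enzyme of the classical pathway of bile acid synthesis, stood at 11.45, 7.32, 5.83 and 6.52 at 12 h, against 2.60, 2.83, 2.93 and 2.60 at 6 h. It was the gene in which the cows differed most among these, since cow 1 was closest to the -22 h mean of 12.94 at 12 h and cow 7 farthest from it; the difference was 5.04 ± 0.73 (adjusted p = 4.3e-06). ALAS1, the rate-limiting enzyme of heme synthesis, followed the same course with 11.12, 10.61, 8.83 and 9.99 at 12 h, against 6.08, 7.09, 5.80 and 5.51 at 6 h and a -22 h mean of 12.37. GPX3, the glutathione peroxidase that is secreted into plasma, had 13.87, 12.97, 12.52 and 13.12 at 12 h, against 11.65, 7.66, 8.78 and 8.07 at 6 h. Cow 1 was ahead of the other cows at 6 h, and the gene stayed high at 48 h, 6.05 above the -22 h level in the fit. The other large rises were those of NFATC3 (4.80 ± 0.23), UNG (4.12 ± 0.36), TRIM68 (4.03 ± 0.20), PLEK2 (3.99 ± 0.21), RBM24 (3.88 ± 0.40), the desmosomal cadherin DSC2 (3.88 ± 0.35) and SPP1, osteopontin (3.85 ± 0.56). All 12 of these genes had 12 h values that did not overlap the 6 h values, as had 15.8% of all probe sets in that direction. In a dimmer NFATC3 probe set the rise was only 0.88, so its size is uncertain.

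The largest fall was that of CXCL10, an interferon-induced chemokine that attracts T cells. It had 3.91, 4.06, 7.60 and 2.58 at 12 h, against 9.87, 10.35, 10.25 and 9.29 at 6 h. Cow 7 kept the highest level at 12 h, but below every 6 h value, and the difference was -5.40 ± 1.16 (adjusted p = 0.00052). CCL20, a chemokine for dendritic cells and lymphocytes, had 3.93, 2.08, 3.99 and 1.91 at 12 h, against 5.79, 8.89, 7.75 and 6.81 at 6 h. The difference was -4.33 ± 0.47 (adjusted p = 5.7e-08), and its mean at -22 h was 2.00. SLC7A5, a transporter of large neutral amino acids and a target of the stress factor ATF4, had 4.30, 4.53, 4.71 and 2.25 at 12 h, against 8.40, 9.01, 8.94 and 8.37 at 6 h. Its change from -22 h was 2.02 at 12 h and 6.75 at 6 h, so that it fell without crossing its starting level. PDZK1, a scaffold protein of the HDL receptor SCARB1, had 4.03, 3.73, 6.38 and 4.33 at 12 h, against 9.59, 10.31, 10.02 and 9.66 at 6 h, both below its -22 h mean of 11.46. UGT2B10, a glucuronosyltransferase, had 3.32, 3.33, 3.58 and 3.35 at 12 h, against 6.64, 7.67, 7.29 and 7.92 at 6 h and a mean of 10.95 at -22 h. These falls thus held genes raised at 6 h that came back and genes lowered at 6 h that went lower still. BCL2L14, RHOF and SPSB1 were called on the other side of the -22 h level at 12 h. BCL2L14 and RHOF were dim at 12 h, and their calls there were near the threshold (limma, adjusted p = 0.043 and 0.044). A dimmer RHOF probe set stood at -0.01 relative to -22 h at 12 h. The remaining large falls were those of BCL2L14 (-4.73 ± 0.55), the HSP40 co-chaperone DNAJA4 (-4.12 ± 0.77), RHOF (-3.97 ± 0.39), SPSB1 (-3.96 ± 0.53), the cyclin-dependent kinase inhibitor CDKN1A (-3.81 ± 0.61), LGI4 (-3.80 ± 0.45) and the liver phosphoinositide kinase PIK3C2G (-3.79 ± 0.27). DNAJA4 was the only one of these 12 genes whose 12 h and 6 h values overlapped, through cow 7 at 9.40 at 12 h. Among all probe sets 28.3% were lower at 12 h with no overlap. A dimmer PIK3C2G probe set differed by -0.63 and was not called.

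**Figure D2:**
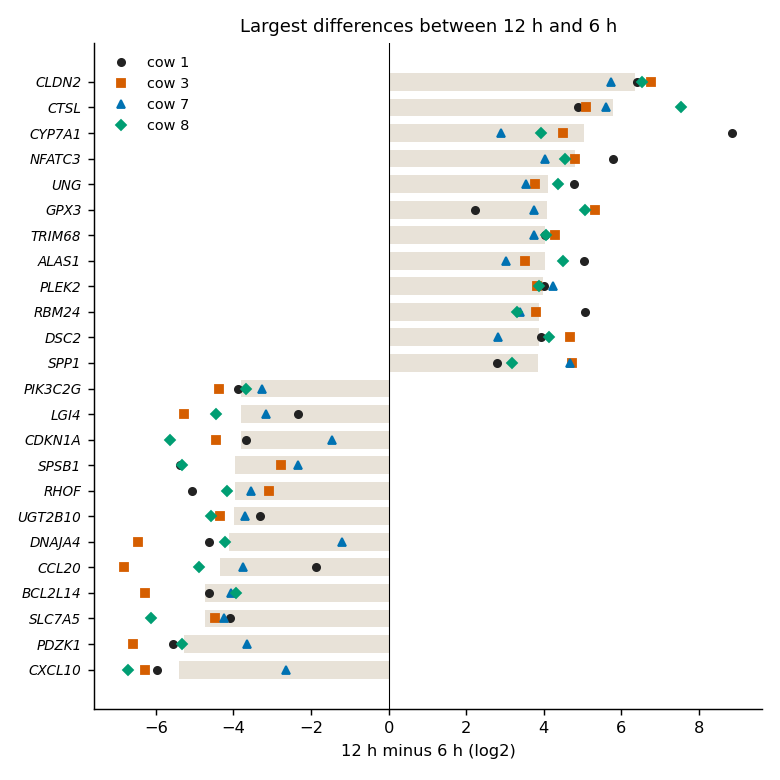
The horizontal axis is the log2 difference 12 h minus 6 h, with the limma estimate as a bar and each of the 4 cows as a symbol, for the 12 genes with the largest called rise and the 12 with the largest called fall. Every symbol lies on the same side of 0 as its bar, and the cows are most spread for CYP7A1, CCL20, DNAJA4, CDKN1A and CXCL10.

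The genes of the low-high and high-low sets were chosen by their changes from -22 h, so those changes are given as a description, without a test. The low-high set held 1.92% of all probe sets and the high-low set 0.7%. Without cow 1 the high-low set held 108 probe sets. The median size of the change was 0.67 at 12 h and 0.61 at 6 h in the low-high set, and 0.76 at 12 h and 0.80 at 6 h in the high-low set. Both changes were at least 2-fold for 37 of the 464 and 19 of the 169 probe sets. Members just inside the threshold of the low-high set had changes of 0.19 to 0.86 at 12 h and -0.96 to -0.33 at 6 h, and probe sets just outside it 0.20 to 0.56 and -0.53 to -0.08. Dim probe sets, with the means at -22 h, 6 h and 12 h all under a log2 value of 5, were 18 of the 464 and 6 of the 169, against 12083 of all 24128. These means were taken over the 4 cows with arrays at 6 h and 12 h. A single gene was named for 353 of the 464 low-high probe sets (76.1%) but for 62 of the 169 high-low probe sets (36.7%), against 55.3% of all probe sets other than the array's controls, so most of the high-low set has no gene name here.

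The 305 low-high genes included genes of cell junctions and the cytoskeleton, with CLDN2 as described. PLEK2, pleckstrin 2, which binds membranes and takes part in actin rearrangement, had 9.10, 8.63, 8.37 and 8.39 at 12 h, against 5.09, 4.79, 4.12 and 4.53 at 6 h. All its 6 h values were below, and all its 12 h values above, the -22 h mean of 6.66, and its second probe set rose by 3.03 between the hours. TUBA4A, an alpha-tubulin, had 11.09, 11.45, 11.13 and 11.88 at 12 h, against 8.40, 8.59, 8.66 and 8.65 at 6 h. VCL, vinculin, which links actin to adhesion sites, had 8.32, 8.44, 7.57 and 8.43 at 12 h, against 6.61, 6.62, 6.36 and 6.76 at 6 h, a smaller change of 1.17 at 12 h and -0.43 at 6 h relative to -22 h. ACTG1, gamma-actin, had 14.12, 14.05, 13.81 and 14.33 at 12 h, against 11.87, 12.01, 11.59 and 11.81 at 6 h in its brightest probe set, but another bright probe set of the gene differed by -0.84 between the hours, so the direction for ACTG1 is uncertain. PCDH1, a protocadherin of cell contacts, had 8.97, 8.84, 8.42 and 9.04 at 12 h, against 4.82, 6.34, 4.61 and 5.52 at 6 h. RAB11FIP5, a Rab11 partner in recycling endosomes, had 7.84, 8.21, 7.75 and 7.63 at 12 h, against 4.89, 3.50, 4.71 and 4.85 at 6 h, with cow 3 lowest at 6 h and highest at 12 h.

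A second group of low-high genes acts on DNA and chromatin. UNG, the glycosylase that removes uracil from DNA, had 8.56, 8.52, 7.69 and 8.46 at 12 h, against 3.79, 4.75, 4.15 and 4.08 at 6 h. Its -22 h mean was 6.85, so the gene was far below that level at 6 h in every cow and above it at 12 h. MCM6, a subunit of the replicative helicase, had 8.36, 8.48, 7.72 and 8.27 at 12 h, against 4.41, 5.13, 5.58 and 5.13 at 6 h. Of 40 measured genes of cell cycle and DNA replication, 16 were higher at 12 h than at 6 h and 4 lower, against 28% and 17.5% of all genes. The low-high set held 6 of the 40, beside 3.33% of all genes. These 6 were MCM6, the replication inhibitor GMNN, the clamp and clamp loader genes PCNA and RFC3, the single-strand binding protein RPA1 and the kinase CDK2. PLK1, a mitotic kinase, was in the high-low set, at -0.47 at 12 h and 0.92 at 6 h relative to -22 h. The mitotic cyclins CCNA2, CCNB1 and CCNB2 differed by -0.02, -0.03 and -0.02, and none of them passed the test. The median difference over all probe sets was also -0.02. Whether the signals of these cyclins rose above background was not tested, so they cannot be read as steady. CHD4, the ATPase of the NuRD chromatin remodelling and deacetylase complex, had 9.88, 9.91, 9.87 and 10.10 at 12 h, against 7.26, 7.32, 6.56 and 7.21 at 6 h, and its 3 further probe sets rose by 2.92 to 3.58. The other NuRD subunits were looked at after CHD4 had been seen. Of 11 measured subunits 7 were higher at 12 h and none lower, with MTA3 (2.46), HDAC1 (1.64) and RBBP7 (1.17) in the low-high set besides CHD4, while HDAC2 differed by -0.04 and MTA2 by 0.23.

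Protein turnover genes crossed the -22 h level as well. Of 35 measured proteasome genes, 27 were higher at 12 h than at 6 h and 1 was lower, against 28% and 17.5% of all genes. The low-high set held 9 of the 35, beside 3.33% of all genes: PSMB6, PSMC1, PSMC3, PSMD2, PSMD4, PSMD5, PSMD9, PSMD13 and ADRM1. PSMD9, a chaperone of proteasome base assembly, had 10.99, 10.41, 10.09 and 10.34 at 12 h, against 8.45, 8.30, 8.12 and 8.12 at 6 h. PSMD5, another assembly chaperone, had 9.17, 8.93, 8.48 and 9.31 at 12 h, against 6.92, 6.53, 6.58 and 6.95 at 6 h, so the groups lay more than 1.5 log2 units apart for both. The list as a whole had a median change from -22 h of 0.77 at 12 h and 0.08 at 6 h. DCAF4, a substrate receptor of CUL4 ubiquitin ligases, had 8.61, 8.63, 8.30 and 8.83 at 12 h, against 5.42, 5.30, 5.55 and 5.72 at 6 h. Of 7 measured subunits of the COP9 signalosome, which strips NEDD8 from cullin ligases, 6 were higher at 12 h and none lower, and COPS3, COPS4 and COPS6 were low-high; this complex too was chosen after its values were seen. QPCTL, the glutaminyl cyclase of the Golgi apparatus, had 9.51, 8.87, 8.73 and 9.53 at 12 h, against 6.08, 5.25, 5.79 and 6.01 at 6 h.

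Some mitochondrial genes were in the low-high set. Of 73 measured genes of oxidative phosphorylation 11 were in it, of 66 mitochondrial ribosomal proteins 8, of 22 genes of the TCA cycle and pyruvate dehydrogenase 2, and of 39 mitochondrial carriers and import genes 1, beside 3.33% of all genes. CYC1, cytochrome c1 of complex III, had 11.00, 11.15, 10.63 and 11.63 at 12 h, against 9.57, 9.55, 9.71 and 9.91 at 6 h. PDP1, the phosphatase that activates pyruvate dehydrogenase, had 7.77, 7.75, 7.30 and 6.55 at 12 h, against 5.30, 4.67, 4.47 and 4.93 at 6 h, and DLAT, the acetyltransferase of the same complex, changed by 1.34 at 12 h and -0.97 at 6 h relative to -22 h. The largest swing of a mitochondrial ribosomal protein was that of MRPS24, with a difference of 2.30. RBM24, an RNA-binding protein with 7.55, 6.50, 5.78 and 5.70 at 12 h, against 2.39 to 2.71 at 6 h, stood outside these groups and was dim at 6 h. Secreted and plasma-facing members included PLAU, the plasminogen activator urokinase (1.11 at 12 h and -1.33 at 6 h), the lipase LPL (1.56 and -0.86) and the IGF carrier IGFBP3 (0.74 and -0.92), each as the change from -22 h.

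**Figure D3:**
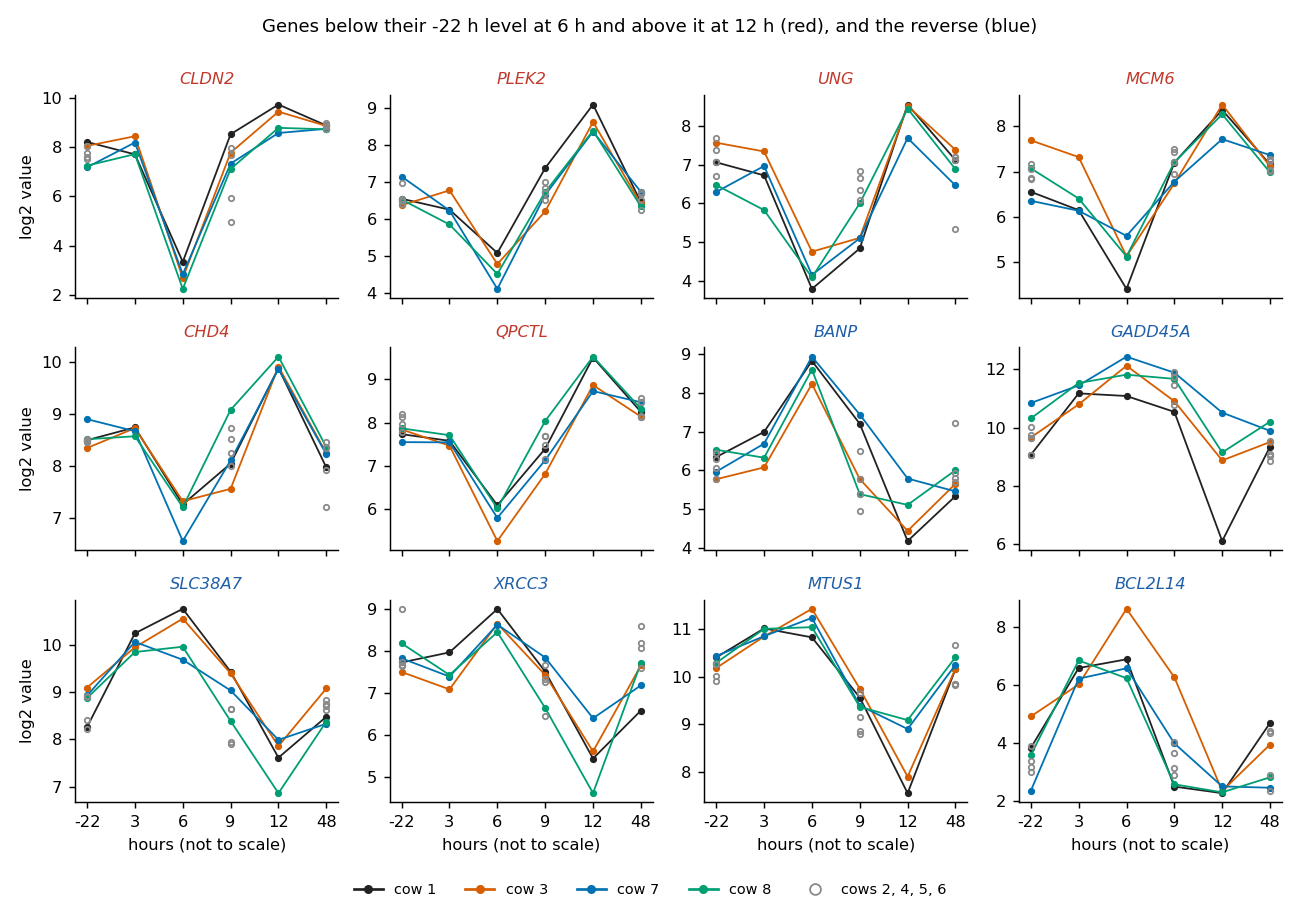
Log2 value (vertical axis, a scale for each gene) by hour (horizontal axis, not to scale) for 6 low-high genes with red titles and 6 high-low genes with blue titles; lines join the arrays of cows 1, 3, 7 and 8, and open circles are cows 2, 4, 5 and 6. In CLDN2, PLEK2, UNG, MCM6, CHD4 and QPCTL all 4 lines reach their lowest point at 6 h, and in BCL2L14 the 4 lines meet near 2.3 at 12 h.

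The high-low set held 46 genes. BANP, a nuclear protein that binds DNA, had 4.18, 4.44, 5.79 and 5.11 at 12 h, against 8.83, 8.23, 8.94 and 8.60 at 6 h and a mean of 6.16 at -22 h. Its dimmer second probe set differed by 0.21 between the hours and was not called. GADD45A, a stress gene that slows the cell cycle after damage, had 6.11, 8.87, 10.51 and 9.14 at 12 h, against 11.08, 12.12, 12.43 and 11.81 at 6 h. It fell furthest in cow 1 and least in cow 7. BCL2L14, of the BCL2 family, had 2.26, 2.33, 2.49 and 2.29 at 12 h, against 6.87, 8.61, 6.56 and 6.22 at 6 h, and cow 3 was highest at 6 h. RHOF, a small GTPase that shapes actin protrusions, had 3.31, 4.63, 4.54 and 3.68 at 12 h, against 8.39, 7.72, 8.08 and 7.84 at 6 h. BCL2L14 and RHOF were both dim at 12 h, so their place below the -22 h level is uncertain. SPSB1, a SOCS box adaptor of ubiquitin ligases, had 3.18, 5.97, 6.29 and 2.81 at 12 h, against 8.57, 8.75, 8.62 and 8.14 at 6 h, with the cows split into a higher and a lower pair at 12 h. SLC38A7, a glutamine transporter, had 7.62, 7.86, 7.99 and 6.87 at 12 h, against 10.75, 10.55, 9.68 and 9.95 at 6 h.

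SMUG1, a second glycosylase for uracil in DNA, had 6.06, 5.97, 6.44 and 6.25 at 12 h, against 8.12, 7.78, 8.01 and 7.97 at 6 h. Its change from -22 h was -1.05 at 12 h and 0.74 at 6 h, while that of UNG was 1.5 at 12 h and -2.62 at 6 h. Of 7 measured DNA glycosylases, a group listed after these values were seen, UNG was the 1 that was higher at 12 h than at 6 h, and SMUG1 and NTHL1 were lower. Among all genes 28% were higher and 17.5% lower. XRCC3, which acts in homologous recombination, had 5.45, 5.62, 6.41 and 4.62 at 12 h, against 9.01, 8.66, 8.64 and 8.46 at 6 h. FANCG, of the Fanconi anaemia core complex, changed by -1.58 at 12 h and 0.37 at 6 h. DNA repair genes were found in both sets, since XRCC5 (0.71 at 12 h and -1.35 at 6 h), EXO5 (0.85 and -1.57) and REV3L (0.85 and -1.34) were low-high; all these were picked out after their values were seen. Other members were MTUS1, a microtubule-associated protein, with 7.55, 7.90, 8.90 and 9.09 at 12 h, against 10.83, 11.43, 11.24 and 11.05 at 6 h, and its 3 further probe sets fell by 1.89 to 2.91. CEACAM1, an adhesion molecule that promotes hepatic insulin clearance in mice, had 6.09, 6.59, 7.54 and 6.45 at 12 h, against 8.90, 9.20, 8.61 and 8.79 at 6 h. THUMPD3, a tRNA methyltransferase, had 6.65, 6.18, 6.43 and 6.64 at 12 h, against 8.79, 9.08, 8.68 and 8.91 at 6 h, but its second probe set differed by -0.32, was not called and stood at -0.36 relative to -22 h at 6 h. Dim second probe sets of XRCC3 (-0.05), BCL2L14 (-0.02) and, among the low-high genes, PDP1 (0.06) and VCL (-0.02) were not called between the hours either. CD14, the co-receptor for LPS, had 11.09, 11.09, 11.46 and 11.35 at 12 h, against 12.35, 12.44, 12.34 and 12.44 at 6 h, a change of -0.61 at 12 h and 0.54 at 6 h relative to -22 h with no overlap between the hours. Its second probe set differed less, by -0.59, with 0.16 at 6 h relative to -22 h. EIF4EBP1, which restrains cap-dependent translation, changed by -0.67 and 0.41.

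The 9 h arrays lay between the 6 h and 12 h arrays for most members. For each probe set the share of the way from its 6 h to its 12 h value that was covered at 9 h was taken. The median share over the low-high set was 53.1%, 50.0%, 63.6% and 58.3% in cows 1, 3, 7 and 8. Over the high-low set it was 41.3%, 46.7%, 41.3% and 61.0%. Of the 464 low-high probe sets 388 were higher at 9 h than at 6 h and 350 were higher at 12 h than at 9 h, against 13.6% and 12.1% of all probe sets. Of the 169 high-low probe sets 135 were lower at 9 h than at 6 h and 139 lower at 12 h than at 9 h, against 12.2% and 9.58%. These hours share arrays with the choice of the sets, so the counts are a description. Over both directions 25.8% of all probe sets differed at 9 h from 6 h and 21.7% at 12 h from 9 h. Genes differed in their timing. LPL had reached 2.02 above -22 h at 9 h, past its 12 h value, and PCDH1 1.00, whereas CKB, creatine kinase B, was still at -1.52 and UNG at -1.16. Among the high-low genes SPSB1 (2.29) and GADD45A (1.56) were still raised at 9 h, while MTUS1 (-0.90) and CD200 (-1.04) were already below.

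Cows 2, 4, 5 and 6 gave a reading of the members in animals that had no 6 h or 12 h biopsy, although their -22 h, 9 h and 48 h arrays were part of the fit that chose the sets. In a fit to their 12 arrays alone, 130 of the 464 low-high probe sets were higher at 9 h than at -22 h (28.0%) and 47 lower (10.1%), against 20.4% and 19.7% of all probe sets (40.1% together). The median change was 0.12, against 0.02 over all probe sets. At gene level 29.5% of the 305 low-high genes were higher and 11.5% lower, against 27.8% and 25.8% of all genes. The higher share was thus near that of all genes, while the lower share was below it. Of the 169 high-low probe sets 26 were higher and 31 lower, with a median of -0.01, and without cow 4 or cow 5 the count of 57 was 32 or 36. Named members in these cows at 9 h included SPSB1 (2.62, adjusted p = 0.00049), GADD45A (1.84, adjusted p = 0.0018), XRCC3 (-0.82, adjusted p = 0.0099), MTUS1 (-1.0, adjusted p = 0.0015), PCDH1 (1.06, adjusted p = 0.035), DCAF4 (0.68, adjusted p = 0.0084) and PSMD9 (0.43, adjusted p = 0.0039). Low-high genes called lower there included CKB (-1.60, limma, adjusted p = 0.00016), SEC22C (-1.54, adjusted p = 0.003) and QPCTL (-0.52, adjusted p = 0.049). CLDN2 stood at -1.10 (adjusted p = 0.16) and UNG at -0.73 (adjusted p = 0.061), which did not pass. In a test of whether the 9 h change differed between the 2 sets of cows, none of the 464 and none of the 169 passed after adjustment in limma, but only 1 of all 24128 did, and 20 (4.31%) and 5 (2.96%) had an unadjusted p below 0.05, against 3.71% of all probe sets. At 48 h in cows 2, 4, 5 and 6, 9 low-high probe sets were higher and 39 lower than at -22 h, and 3 high-low probe sets were higher and 18 lower, against 1.51% higher and 3.73% lower of all (5.24% together). With median centring of the arrays the low-high balance at 48 h turned, to 57 higher and 47 lower, and the high-low counts were 15 and 27. Without cow 4, none of the low-high and 1 of the high-low probe sets were called at 48 h, and without the 48 h array of cow 2 the counts of 48 and 21 were 20 and 13.

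**Figure D4:**
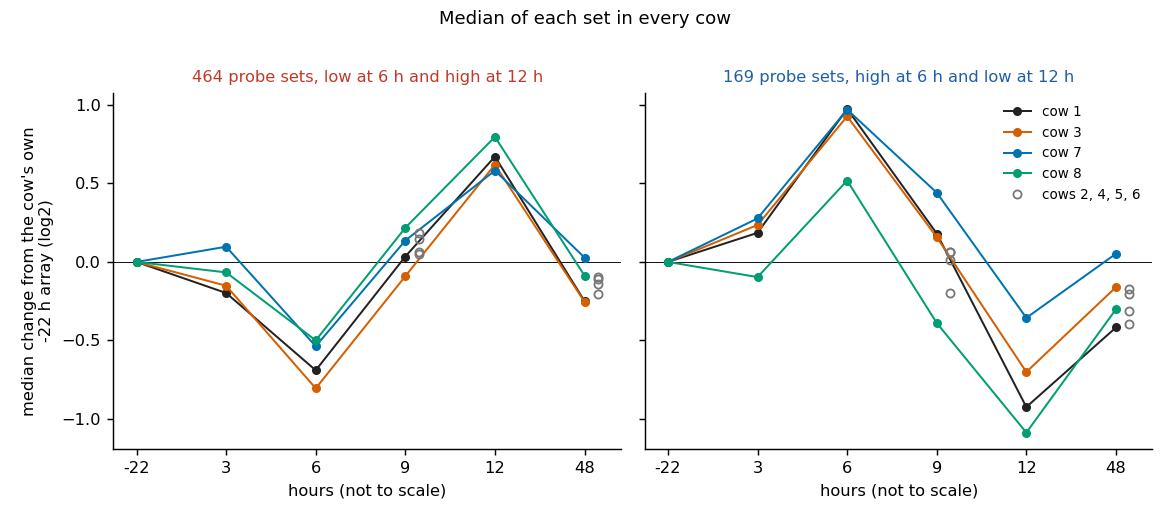
The vertical axis is the median log2 change of the 464 low-high probe sets (left) and the 169 high-low probe sets (right) from each cow's own -22 h array, by hour (not to scale); lines are cows 1, 3, 7 and 8 and open circles cows 2, 4, 5 and 6. The medians at 12 h lie between 0.58 and 0.80 on the left and between -1.09 and -0.36 on the right, those at 6 h between -0.80 and -0.50 on the left and between 0.52 and 0.97 on the right, and at 9 h the medians of all 8 cows lie between -0.09 and 0.22 on the left and between -0.39 and 0.44 on the right.

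Among the gene groups, those of ribosomal proteins, translation factors, the proteasome, mitochondria and the cytoskeleton held more genes higher than lower at 12 h. Of 16 aminoacyl-tRNA synthetases 4 were higher and 9 lower. WARS1 was higher in its brightest probe set (0.84) but called lower in its others (-1.09, -1.62 and -1.43), so its direction is uncertain. Counts are set against 28% higher and 17.5% lower of all 9155 genes (45.6% together), and the median difference over all genes was -0.01. Of 60 measured cytosolic ribosomal proteins 56 were higher and none lower, with a median of 0.43, the largest difference being that of RPS21 (0.98). Of 66 mitochondrial ribosomal proteins 54 were higher and 4 lower (median 0.62), and MRPL23 (-1.10) and MRPL18 (-0.94) were among those that fell. Of 42 genes of translation initiation and elongation 28 were higher and 2 lower (median 0.47). The 2 that were lower, the PERK kinase gene EIF2AK3 (-1.23) and EIF4EBP1 (-1.08), restrain translation. EEF2K, a kinase that also restrains translation, went the other way and was higher (1.72, and 2.42 in a second probe set). Of 39 mitochondrial carriers and import genes 25 were higher, among them the phosphate carrier SLC25A3 (1.72) and the import pore gene TOMM40 (1.69). In oxidative phosphorylation 52 of 73 were higher and 4 lower, with a median change from -22 h of 0.13 at 12 h and -0.25 at 6 h, and SDHA (-0.31) and SDHB (-0.35) of complex II were among the 4. Of 42 cytoskeletal genes 26 were higher and none lower in the brightest probe sets, including TUBA4A, VCL, the actin-severing cofilins CFL1 (1.18) and CFL2 (1.61), and VIM, vimentin (1.01). Of 28 genes of polyamine, purine and pyrimidine synthesis 15 were higher and 3 lower, among them CTPS1 (2.69) and ODC1 (1.79), the rate-limiting enzyme of polyamine synthesis. In glycolysis and the pentose phosphate pathway 15 of 30 were higher and 4 lower, with ALDOA (1.80) and PKM (1.35) higher and PKLR (-2.91), the liver pyruvate kinase, lower.

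Early signalling and stress groups held more genes lower than higher at 12 h. Of 23 immediate early and inflammatory transcription factors 10 were lower at 12 h than at 6 h and 1 higher, with a median change from -22 h of 1.40 at 12 h and 2.87 at 6 h. NFKB2, an NF-kappaB subunit, had 4.60, 5.23, 6.24 and 3.71 at 12 h, against 7.89, 8.99, 8.13 and 7.92 at 6 h, and FOS differed by 0.22 and CEBPB by 0.03, neither of them called. Of 20 genes of the ATF4 stress response 15 were lower and none higher (median -1.38), among them SLC7A5, the pseudokinase TRIB3 (-2.84) and the mitochondrial folate enzyme MTHFD2 (-2.53). Of 27 heat shock and chaperonin genes 15 were lower and 3 higher. BAG3, a co-chaperone of HSP70, had 9.41, 10.77, 12.90 and 9.88 at 12 h, against 14.20, 14.68, 14.31 and 14.08 at 6 h, and HSPH1, an HSP110 chaperone, had 9.79, 11.15, 13.37 and 9.71 at 12 h, against 14.29, 15.01, 14.62 and 14.12 at 6 h. Both were highest at 12 h in cow 7, where the median difference of the heat shock list was -0.20, against -0.73, -0.64 and -0.40 in cows 1, 3 and 8. Of 19 feedback inhibitors of NF-kappaB, JAK-STAT and MAPK signalling 9 were lower and 2 higher, with TNIP1 (-2.10) and NFKBIA (-2.08) lower and SOCS2 (1.05) higher. Of 35 cytokines and receptors 12 were lower and 3 higher, with the IL-1 antagonist IL1RN (-1.85) and IL10 (-1.73) lower and the decoy receptor TNFRSF6B (2.08) higher. Of 19 chemokines 2 were higher and 5 lower, of 48 ribosome biogenesis genes 17 and 15, and of 38 genes of ER folding and secretory entry 18 and 3.

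**Figure D5:**
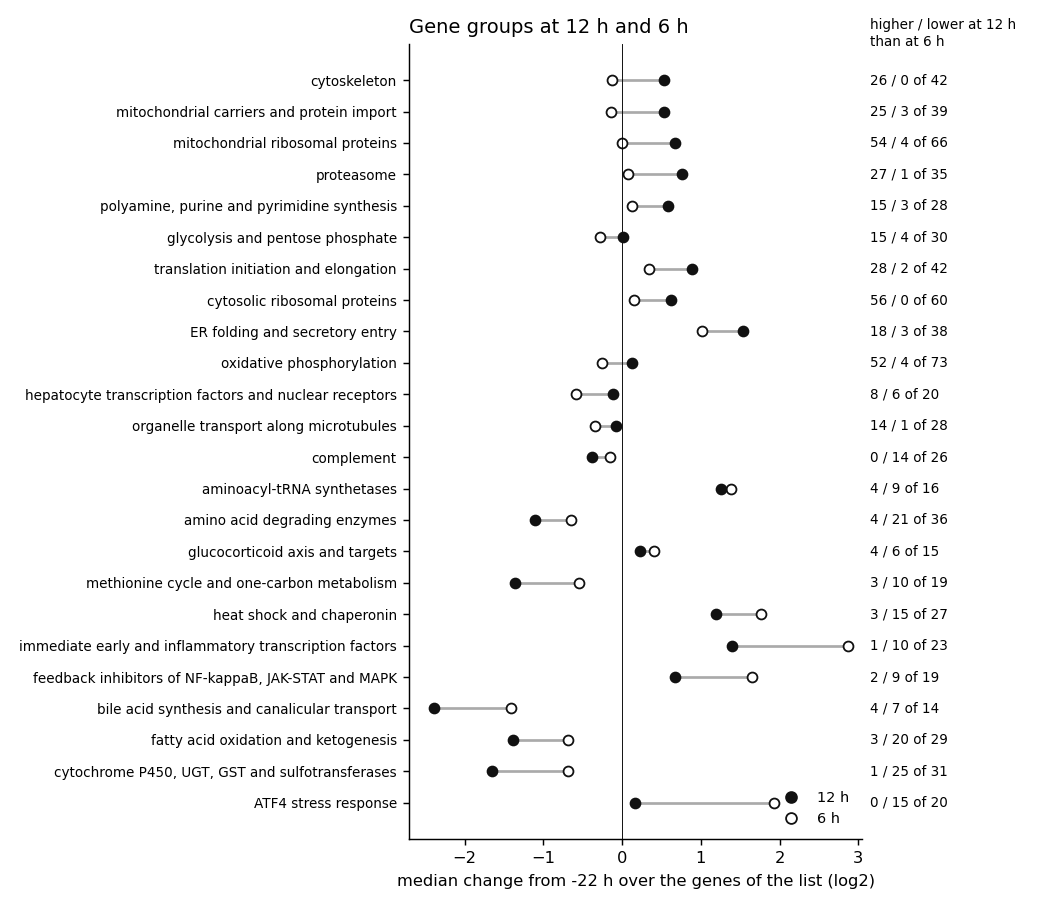
The horizontal axis is the median change from -22 h over the genes of a list (log2), at 12 h (filled) and at 6 h (open), for the 12 lists with the highest and the 12 with the lowest median difference; figures at the right give genes higher and lower at 12 h than at 6 h, of those measured. The ATF4 list stands at 0.16 at 12 h and 1.93 at 6 h, while the cytochrome P450 and fatty acid oxidation lists are below 0 at both hours and lower at 12 h.

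Groups of detoxification, fatty acid oxidation, amino acid breakdown, bile acids and complement, whose medians were below the -22 h level at 6 h, held more genes lower than higher at 12 h. Other metabolic lists with a median below that level at 6 h went the other way. These were glycolysis and oxidative phosphorylation above, and the TCA cycle list (10 higher and 2 lower of 22). The urea cycle list held 5 higher and 3 lower of 14 (35.7% and 21.4%), near the shares of all genes (28% and 17.5%). Of 31 cytochrome P450, UGT, GST and sulfotransferase genes 25 were lower at 12 h than at 6 h and 1 was higher (NR1I3, the nuclear receptor CAR, 1.29), with a median change from -22 h of -1.66 at 12 h and -0.69 at 6 h. Of 29 genes of fatty acid oxidation and ketogenesis 20 were lower and 3 higher. HSD17B4, of peroxisomal beta-oxidation, had 10.88, 10.03, 10.98 and 10.80 at 12 h, against 12.82, 12.55, 12.88 and 12.83 at 6 h, with no overlap. Its dimmer probe set differed by -0.67 and was not called. PPARA, the receptor that drives the pathway, was higher (1.59). Of 36 amino acid degrading enzymes 21 were lower and 4 higher, and TAT (2.74) and SDS (2.41) were among those that were higher. Of 14 genes of bile acid synthesis and transport 7 were lower and 4 higher. SLC10A1, the main bile acid uptake carrier, had 10.86, 10.90, 12.36 and 10.28 at 12 h, against 13.83, 13.74, 14.03 and 13.75 at 6 h, the reverse of CYP7A1. Of 26 complement genes 14 were lower and none higher, with a median of -0.32. MBL2, mannose-binding lectin, had 10.78, 9.71, 10.12 and 9.40 at 12 h, against 11.91, 11.70, 11.55 and 11.49 at 6 h. Of 24 acute phase proteins 6 were lower and 1 higher, and the differences of major ones did not pass the test, at 0.15 for HP, haptoglobin (adjusted p = 0.92), 0.16 for SAA3, serum amyloid A3 (adjusted p = 0.77), and -0.01 for ORM1 (adjusted p = 0.96). HP had 15.91, 15.85, 15.98 and 15.98 at 12 h, against 15.84, 15.71, 15.78 and 15.77 at 6 h, and the SE of 1.06 pools its spread over all hours, the -22 h arrays included, on which HP lay between 7.33 and 15.14 in the 8 cows. The highest value on any array was 16.37, close to HP at both hours, and saturation of its signal was not tested.

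In bulk tissue, fewer cells of a type and less RNA per cell cannot be told apart, and marker levels are given beside the comparison for this reason. Hepatocyte markers were bright at both hours, with a summed level of 225609 to 249659 at 12 h and 239795 to 259789 at 6 h over 8 genes. The summed level of 5 neutrophil markers was 9942 to 22181 at 12 h, against 4812 to 6115 at 6 h and 176 to 342 at -22 h. S100A8, a calcium-binding protein of neutrophils and monocytes, had 12.43, 13.46, 13.58 and 12.36 at 12 h, against 11.48, 11.55, 11.59 and 11.78 at 6 h, and the difference was 1.36 ± 0.45 (adjusted p = 0.019), while FCGR3A was lower (-0.81) and MMP9 was dim at every hour. The summed level of 6 Kupffer cell and macrophage markers was 5850 to 7523 at 12 h, against 8908 to 10130 at 6 h. Of these 6 genes CD14, a member of the high-low set, was lower and MSR1 was higher (1.72). The other 4 were not called, and the median difference was 0.01, so the lower sum is not a fall shared by the markers. Dimmer MSR1 probe sets differed by -0.17 and -0.25 and were not called. Markers of T, NK and erythroid cells were mostly dim, 5 of 7 and 5 of 5 genes under a log2 value of 5. The part of these cells in the differences was not tested. Of 9 measured clock genes 4 were lower at 12 h and 2 higher, against 17.5% and 28% of all genes, with a median difference of -0.02. PER2 stood at 5.96, 5.40, 5.25 and 3.58 at 12 h, against 7.71, 7.94, 6.60 and 7.24 at 6 h, and NFIL3 (-2.35), BHLHE40 (-1.67) and CRY1 (-1.26) were lower too, while CSNK1D (0.90) and HLF (0.75) were higher. Hours after infusion and time of day cannot be told apart in these arrays.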

How the data were processed

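RNA of 36 liver biopsies was hybridised to the Affymetrix bovine array. The deposited log2 values had been made by the authors with GCRMA, which corrects background by probe sequence, normalizes arrays by quantiles and summarises probe sets, and quantile scaling makes all arrays alike in distribution. The values were used unchanged, and no detection calls were used. Of 24128 probe sets 13318 name 1 gene, 86 several and 10724 none in the platform annotation; genes were read through their brightest probe set. Hour and cow were fitted with limma 3.58.1 (R 4.3.3) with 23 residual degrees of freedom, with Benjamini-Hochberg adjustment over all probe sets at 0.05. Cows pair the hours because the labels give the animal; deviations at 12 h and 6 h correlated in the same cow (0.27 to 0.38). Named genes were the 12 largest called rises and falls and the 12 genes of each set with the largest smaller change, all with 1 sign in the 4 cows, up to 4 called members and the most abundant member of each list, and genes the study names. Members and lists were chosen with earlier results of these data known. The 45 gene lists and 9 marker lists were written by hand, and groups said to be chosen after their values were seen were added later. Alternatives tried were fits with no cow term or a random one, other arrays, scaling, filters, weights, thresholds and baseline, and each cow left out. The fit was tested on simulated data.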

Additional observations from a re-analysis of the deposited data

Results flagged for a closer look

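A cow was marked where its value stood apart from the other 3 by Dixon's criterion, which chance alone meets in about 1 of 20 groups; 8 of the 115 groups examined were marked, against 5.75 by chance. Among single genes, the difference 12 h minus 6 h of RAB11FIP5 was 4.71 in cow 3 against 2.78 to 3.03 in the other cows, and that of THUMPD3 was -2.90 in cow 3 against -2.26 to -2.14. IL6 differed by 3.86 in cow 7 and by -0.10 to -0.05 in the others, since its log2 value was 6.56 at 12 h in cow 7 and dim on the other 12 h and 6 h arrays. The median of the high-low set at 6 h was 0.52 in cow 8 and 0.93 to 0.97 in the other cows. Among gene lists, the median difference was -0.28 in cow 3 against -0.10 to -0.07 for cytokines and their receptors, -0.10 in cow 8 against -0.04 to -0.03 for coagulation and fibrinolysis, -0.36 in cow 3 against -0.03 to -0.01 for the circadian clock, and 0.49 in cow 7 against -0.01 to 0.01 for extracellular matrix and matrix proteases.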

How the results depend on the processing

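The count of 8444 probe sets called between 12 h and 6 h was 7719 with no replicate block, 10360 with array weights, 5994 from the 8 arrays alone and 2223 at a Bonferroni-adjusted p below 0.01, and 7176 to 7998 without one cow. The low-high set of 464 became 421 with no replicate block, of which 386 were shared, 467 with the cow as a random block, 446 with median centring, 7 at the Bonferroni threshold and 164 when both changes had to reach 1.5-fold, and 319 to 478 without one cow. The high-low set of 169 became 171, 182, 190, 3 and 94 under the same settings, and 108 to 175 without one cow, with 108 without cow 1. With 48 h in place of -22 h as the baseline the sets held 484 and 148 probe sets, of which 266 and 82 were shared. From the 24 arrays of cows 1, 3, 7 and 8 alone the sets held 342 and 126, of which 329 and 116 were shared. After seeing the data, the sets were recounted without the -22 h array of cow 1, which gave 424 and 145. In cows 2, 4, 5 and 6 at 9 h, leaving out one cow gave 119 to 147 called low-high probe sets, against 177, and 32 to 57 high-low ones, against 57, with 32 without cow 4 and 36 without cow 5. At 48 h the counts of 48 and 21 became 104 (57 higher and 47 lower) and 42 (15 and 27) with median centring, 20 and 13 without the 48 h array of cow 2, and 0 to 16 and 1 to 12 without one cow, alternatives that were all chosen after seeing the data, so the 48 h counts rest on few arrays. Of 295 named genes 261 were called, 256 with no replicate block, and 253 kept their call in all 6 alternatives run for them; no called gene changed sign. The cause of these changes was not tested. With 4 cows an hour, small differences and dim probe sets are measured least well.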

Other observations

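At 12 h cow 7 held the highest level of several early response genes. IL1A was at 6.07 in cow 7, against 2.55 to 3.28 in the other cows, and at 6 h it had been 2.69 to 3.98. CCL2, a monocyte chemokine, had 8.43, 10.12, 12.19 and 4.46 at 12 h in cows 1, 3, 7 and 8, against 10.33, 11.35, 10.97 and 9.86 at 6 h, and PTGS2, the inducible cyclooxygenase, had 5.14, 8.05, 9.87 and 2.82, against 7.51, 8.87, 8.53 and 8.06. In these brightest probe sets both genes were higher at 12 h than at 6 h in cow 7 only, and neither difference was called in limma (adjusted p = 0.057 and 0.073). A dimmer probe set of PTGS2 was called lower at 12 h, with a difference of -3.34 (limma, adjusted p = 9.1e-08). The genes were picked out after their values were seen.

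Claudins moved apart from one another. Besides CLDN2, CLDN5 was 3.40 and CLDN7 1.62 higher at 12 h than at 6 h, CLDN15 was lower (-2.33) and CLDN1 differed by 0.98 without being called. Of 11 measured claudins, a group listed after these values were seen, 4 were higher and 1 lower. Of all genes 28% were higher and 17.5% lower, so the claudin counts lie near those shares. CLDN2 was the 1 claudin called both above its -22 h level at 12 h and below it at 6 h; CLDN7 stood at 0.18 at 12 h and -1.45 at 6 h.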
